A study of Mus musculus with 4 samples.

Results

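Cell cycle inhibitors and p53 target genes were examined as a panel of 10 mouse genes, chosen by name and found in the count files by Ensembl ID: the CDK inhibitors *Cdkn1a*, *Cdkn1b*, *Cdkn2a*, *Cdkn2b* and *Cdkn2c*, the gene of p53 itself (*Trp53*), and the p53 targets *Mdm2*, *Ccng1*, *Bax* and *Phlda3*, *Cdkn1a* being a p53 target as well. They are 10 of the 56748 gene IDs in the files. All libraries came from C2C12, an established mouse myoblast line kept in growth medium. Plasmids with an eGFP reporter brought in either a scrambled shRNA or a mix of 3 shRNAs against *Hnrnpl*. Knockdown and scrambled cells alike were lines selected with puromycin from clones that showed eGFP. RNA of 2 scrambled and 2 knockdown cultures was read as direct RNA on nanopore flow cells. The sample titles number the cultures of each group 1 and 2 and name no batch. Replicate 1 of both groups was taken here as batch 1 and replicate 2 as batch 2. Within a group, both cultures descend from 1 selected line and differ in passage. An effect of the shRNAs therefore cannot be told apart from a difference between the selected lines, and the p-values measure the spread between passages.

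CDK inhibitors restrain the cyclin-dependent kinases that carry a cell from G1 into S phase. The CIP/KIP proteins p21 (*Cdkn1a*) and p27 (*Cdkn1b*) act on cyclin-CDK complexes broadly, and the INK4 proteins (*Cdkn2a*, *Cdkn2b*, *Cdkn2c* and *Cdkn2d*) bind CDK4 and CDK6; *Cdkn2a* also encodes p19ARF, which restrains MDM2. p53 is a transcription factor that is stabilised after DNA damage and other stress, and its targets arrest the cycle (*Cdkn1a*), remove p53 again (*Mdm2*, a ubiquitin ligase), permeabilise mitochondria (*Bax*) or hold back AKT (*Phlda3*). In muscle precursors, p21 is known for its part in leaving the cell cycle at the onset of differentiation.

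The libraries held 1229424 to 1676911 reads on genes. In each, 42.2 to 43.5% of the reads were not assigned to a gene. Among these, 349789 to 479528 per library were ambiguous between genes. *Hnrnpl*, the targeted gene, was read 358 and 656 times in the scrambled libraries and 242 and 258 times in the knockdown libraries, and fell by 0.78 on the log2 scale (SE 0.18, edgeR adjusted p = 0.0112). Its size rested on single libraries, at -0.47 without scrambled 2 (edgeR adjusted p = 0.164), -0.63 without knockdown 1 (edgeR adjusted p = 0.283) and -1.03 without scrambled 1. With the parametric fits of DESeq2 its adjusted p was 0.0567 (Wald) and 0.0670 (likelihood ratio). With the local fits of DESeq2 it was 0.00882 (Wald, the setting the paper chose) and 0.00951 (likelihood ratio). Of the myoblast markers, *Myf5* had 113 to 190 reads per library, *Myod1* had 1 read in all and *Pax7* and *Pax3* had none. *Cdh15* (M-cadherin) was lower in knockdown, with 113 and 152 reads in the scrambled libraries against 25 and 14 in the knockdown ones (log2 fold change -2.55, edgeR adjusted p = 2.03e-06), and so was *Des* (desmin), at 373 and 571 against 309 and 242 (-0.56, edgeR adjusted p = 0.0309), though this call was lost in 6 of 16 alternatives, over which the log2 fold change lay between -0.75 and -0.41. Of the 18 genes of myogenic differentiation, 10 had no reads, *Myog*, *Myh3* and *Ckm* among them, and 3 passed the filter on low counts. Other cell types were little in evidence: 6 macrophage markers summed to 3 and 3 scrambled reads against 5 and 7 knockdown reads, with *Ptprc* and *Adgre1* at 0, and 5 adipocyte markers summed to at most 2 reads in a library. The 6 fibroblast markers summed to 68.5 and 97.8 CPM (reads scaled to a common library total) in scrambled and 75.7 and 69.1 in knockdown, mostly on *Pdgfrb*, with *Thy1*, *Dpt* and *Tcf21* at 0. *Ly6a*, the fibroblast marker with an unadjusted p under 0.05, had 20 and 26 scrambled reads against 11 and 8 knockdown reads, without overlap (log2 fold change -1.06, SE 0.39, edgeR adjusted p = 0.113). In bulk RNA, fewer cells with a transcript and less of it per cell cannot be told apart.

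p53 binds DNA at 2 copies of a 10-base consensus. To show the kind of site behind the names of this panel, the 20-base consensus without a spacer was searched in GRCm39 from 3000 bases before to 1000 bases after the canonical start of every protein-coding gene, asking for the C and G at the core of each copy and allowing up to 2 mismatches elsewhere. Since the consensus reads the same on both strands, a single pass covers both. Such a match was found in 3.92% of 21757 windows, and in 3 of the 10 members, *Cdkn1a*, *Ccng1* and *Bax*. With up to 3 mismatches, a limit added after the first search, 18.3% of windows and 6 members held a match, *Mdm2* among them. The sequences below run 5′ to 3′ on the strand of the gene, and capitals mark the C and G of each core.
*Cdkn1a*, chr17:29309902-29309921, forward strand, first base at -2836 from the start, 1 mismatch: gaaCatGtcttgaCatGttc
*Ccng1*, chr11:40646289-40646308, reverse strand, first base at -170 from the start, 1 mismatch: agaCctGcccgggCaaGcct
*Ccng1*, chr11:40645763-40645782, reverse strand, first base at 356 from the start, 1 mismatch: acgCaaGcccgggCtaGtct
*Bax*, chr7:45115998-45116017, reverse strand, first base at 308 from the start, 2 mismatches: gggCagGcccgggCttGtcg
*Mdm2*, chr10:117546010-117546029, reverse strand, first base at 634 from the start, 3 mismatches: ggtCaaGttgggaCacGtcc

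At 1 mismatch or fewer, 0.598% of the windows held a match. These are matches of letters, and no binding was measured here. Within the windows of *Phlda3*, *Cdkn2a*, *Cdkn2b* and *Cdkn2c* no match was found, which says only that these letters are not there. *Trp53* and *Cdkn1b* each held 1 match with 3 mismatches.

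No member was called between knockdown and scrambled at the thresholds of the study (an adjusted p under 0.05, a log2 fold change beyond 0.5 in either direction and a mean normalized count above 10), tested with edgeR's quasi-likelihood test over 8670 genes. Among all genes tested, 2.33% were called higher and 3.22% lower. Of the 10 members, 8 passed the filter on low counts, and *Cdkn2a* and *Cdkn2b* had no reads. At an unadjusted p under 0.05, 2 members were higher (*Mdm2* and *Phlda3*) and 0 lower, beside 10.3% of all genes higher and 11.5% lower. Both knockdown libraries lay above both scrambled libraries for 4 members (*Trp53*, *Mdm2*, *Bax* and *Phlda3*) and below them for 1 (*Cdkn1b*), where 26.4% of all genes lay above and 26% below. The median log2 fold change of the 8 members was 0.22, and that of all genes tested was 0.00. The log2 fold changes of the members ran from -0.29 to 0.48.

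**Figure D1:**
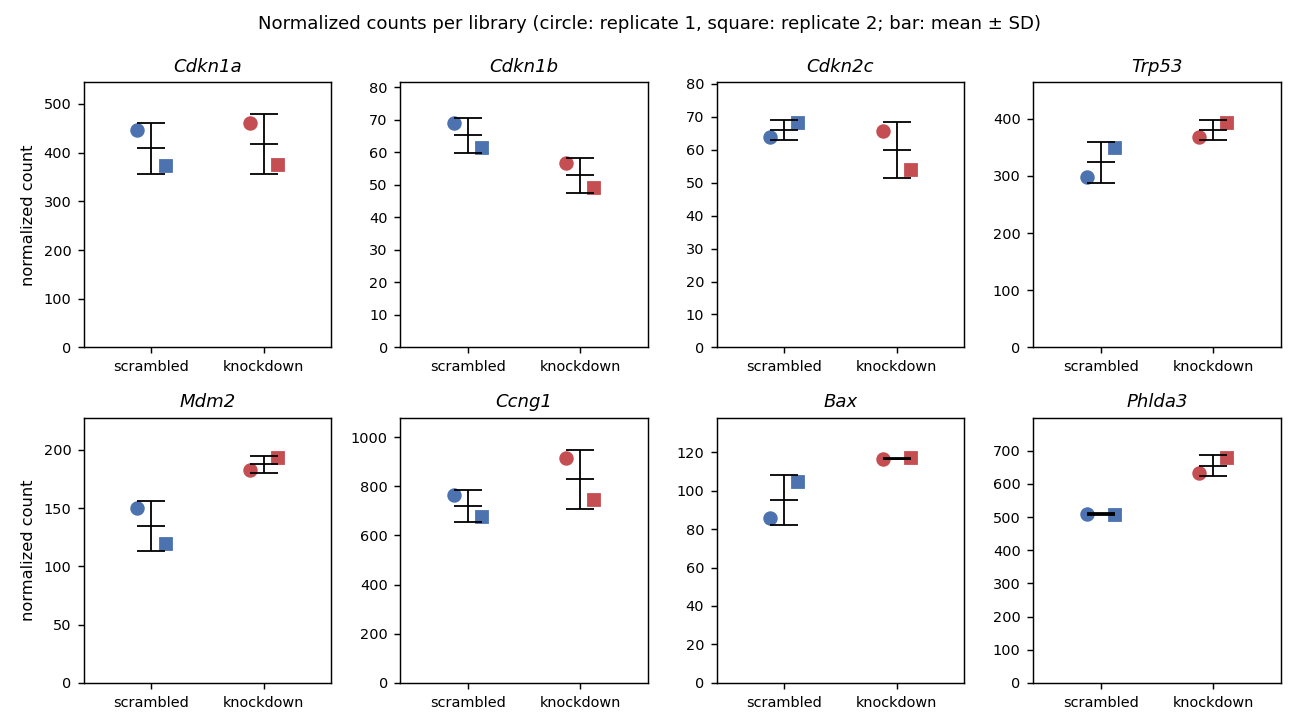
Normalized counts (vertical axes, from 0; TMM-scaled to the mean library) of the 8 members with enough reads, for the scrambled (blue) and knockdown (red) libraries, with replicate 1 as a circle, replicate 2 as a square and the mean ± SD (n = 2) in black. The groups do not overlap for *Cdkn1b*, *Trp53*, *Mdm2*, *Bax* and *Phlda3*, and they overlap for *Cdkn1a*, *Cdkn2c* and *Ccng1*.

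*Cdkn1a* (ENSMUSG00000023067, forward strand, chromosome 17 from 29309936 to 29319701), which encodes p21, had 426 and 442 reads in scrambled 1 and 2, against 463 and 320 in knockdown 1 and 2. After TMM scaling to the mean library this gave 409 ± 52.5 normalized counts (SD, n = 2) for scrambled against 418 ± 61.7 (SD, n = 2) for knockdown. In both groups the library of batch 1 was the higher one, and the groups overlapped. Its log2 fold change was 0.04 (SE 0.15, edgeR adjusted p = 0.923), and its 95% interval corresponds to a knockdown level between 0.823 and 1.27 times that of scrambled. The direction was not stable: with the chromosome medians removed (described further on) the log2 fold change was -0.16, and it was -0.10 without scrambled 2 and -0.13 without knockdown 1. The overlapping antisense gene *Dino*, which shares 504 exon bases with *Cdkn1a*, had no reads assigned to it in any library. Any reads in the shared bases may be among the ambiguous ones.

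*Cdkn1b* (ENSMUSG00000003031, forward strand, chromosome 6 from 134897364 to 134902476), which encodes p27, had 66 and 73 reads in the scrambled libraries against 57 and 42 in the knockdown ones. Normalized counts were 65.3 ± 5.44 (SD, n = 2) and 52.9 ± 5.45 (SD, n = 2), and both knockdown libraries lay below both scrambled libraries. On the log2 scale the difference was -0.29 (SE 0.22, edgeR adjusted p = 0.473). The interval of the ratio, from 0.597 to 1.12, spans both sides of 1. Chromosome 6 went the other way, with a median log2 fold change of 0.28 over 404 genes.

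*Cdkn2c* (ENSMUSG00000028551, reverse strand, chromosome 4 from 109517957 to 109524386), which encodes the INK4 protein p18, had 61 and 81 scrambled reads against 66 and 46 knockdown reads. The normalized counts of 66.0 ± 3.02 (SD, n = 2) and 59.8 ± 8.48 (SD, n = 2) overlapped, with knockdown 1 inside the scrambled range and knockdown 2 below it. This was a log2 fold change of -0.14 (SE 0.21, edgeR adjusted p = 0.753), and the ratio lay between 0.668 and 1.23. It was at -0.30 without knockdown 1 and at -0.01 without knockdown 2.

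*Cdkn2a* and *Cdkn2b* encode the remaining INK4 inhibitors of the panel and lie side by side on the reverse strand of chromosome 4, from 89192708 to 89212890 and from 89223204 to 89229276. No read was counted on either gene in any library. A count of 0 allows up to 3 counts, which is between 1.79 and 2.44 CPM per library, or 0.979 CPM over both scrambled libraries and 1.15 CPM over both knockdown libraries (counting error only). Reads lost in the assignment to genes are not covered by this limit. No fold change is given. The canonical transcripts of both genes, mapped back to the genome, went to their own locus with a mapping quality of 60, and no exon base of *Cdkn2b* is shared with the overlapping antisense gene *Gm12610*.

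The genes next to this pair were read. Within 1 Mb on either side of *Cdkn2a*, 14 of 62 genes had reads, 6 of them protein coding out of 38, and the genes of the interval with an *Ifn* symbol, type I interferons, had none. *Mtap*, a methionine salvage enzyme whose start lies at -145.1 kb from the *Cdkn2a* start (chosen after its values were seen, as the nearest protein-coding gene with reads), had 1071 and 1343 reads in the scrambled libraries against 793 and 677 in the knockdown ones (log2 fold change -0.51, SE 0.13, edgeR adjusted p = 0.0281), a call that was lost in 8 of 16 alternatives while the log2 fold change stayed between -0.52 and -0.44. The lncRNA gene *Gm12606*, which starts at -8.8 kb, had 8 and 7 scrambled reads against 7 and 2 knockdown reads. *Gm12610*, which runs antisense across *Cdkn2b*, had 1 and 2 reads in the scrambled libraries against 0 and 1 in the knockdown ones. On the other side, *Dmrta1*, at 375.8 kb, had 1 and 2 reads in scrambled and none in knockdown.

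**Figure D2:**
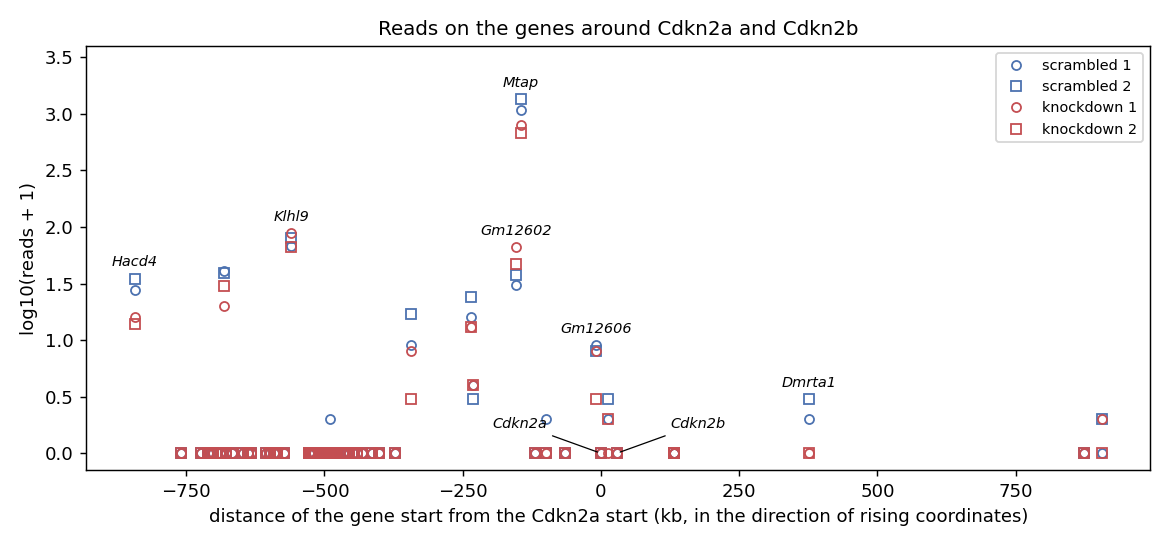
Reads on each gene within 1 Mb of *Cdkn2a* (vertical axis, log10 of reads + 1) against the distance of its start from the *Cdkn2a* start in kb, along the coordinates of chromosome 4 (horizontal axis), for the 4 libraries. *Mtap* at -145.1 kb has 677 to 1343 reads per library, and *Cdkn2a* and *Cdkn2b* sit at 0 in all of them.

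*Trp53* (ENSMUSG00000059552, forward strand, chromosome 11 from 69469669 to 69482701) had 285 and 415 scrambled reads against 369 and 336 knockdown reads. The normalized counts were 298 and 349 in scrambled and 368 and 393 in knockdown, so both knockdown libraries lay above both scrambled libraries, though knockdown 1 exceeded scrambled 2 by less than the scrambled libraries differed from each other. The log2 fold change was 0.23 (SE 0.14, edgeR adjusted p = 0.375), with a ratio between 0.95 and 1.44. It was at 0.12 without scrambled 1 and at 0.35 without scrambled 2. Chromosome 11 had a median of -0.11 over 717 genes. *Wrap53* lies head to head with *Trp53* on the opposite strand, shares 263 exon bases with it and encodes a telomerase and Cajal body factor. It had 27 and 34 reads in the scrambled libraries against 42 and 37 in the knockdown ones (log2 fold change 0.58, SE 0.27, edgeR adjusted p = 0.220). The strand setting of the counting is not given in the sources used here, and without strand the reads of such a pair cannot be told apart in the shared bases. Of the other genes that overlap a member, *Gm57392* (at *Trp53*) had 1 read in each library and *Gm56970* (at *Mdm2*) had 1 read in all.

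*Mdm2* (ENSMUSG00000020184, reverse strand, chromosome 10 from 117524780 to 117546730) encodes the ubiquitin ligase that marks p53 for degradation. It had 143 and 142 scrambled reads against 183 and 165 knockdown reads, which was 135 ± 21.4 (SD, n = 2) and 188 ± 7.44 (SD, n = 2) normalized counts. Both knockdown libraries were above both scrambled libraries, and the ratio of the means, 1.39, was the largest in the panel. Its log2 fold change was 0.48 (SE 0.17, edgeR unadjusted p = 0.00861, adjusted p = 0.0905), with a ratio between 1.10 and 1.78. By unadjusted p it was number 825 of the 8670 genes. Within batch 1 the log2 ratio of knockdown to scrambled was 0.28 and within batch 2 it was 0.69. Among the fits with a library left out, *Mdm2* ranged from 0.32 to 0.65: it was at 0.65 without scrambled 1 (edgeR adjusted p = 0.0587) and at 0.32 without scrambled 2 (edgeR adjusted p = 0.496, unadjusted p = 0.145). Chromosome 10 had a median of 0.24 over 431 genes, and the 30 tested genes within 5 Mb of *Mdm2* also had a median of 0.24.

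*Phlda3* (ENSMUSG00000041801, forward strand, chromosome 1 from 135693809 to 135697686) encodes a small pleckstrin homology protein that competes with AKT at the membrane. It had 488 and 603 reads in the scrambled libraries against 635 and 580 in the knockdown ones. Its scrambled libraries were nearly level, at 511 and 507 normalized counts, and its knockdown libraries lay above them at 633 and 678. On the log2 scale the difference was 0.36 (SE 0.13, edgeR unadjusted p = 0.0138, adjusted p = 0.115), with a ratio between 1.06 and 1.56. The ratio was above 1 in both batches, with log2 values of 0.31 and 0.42. With a library left out its log2 fold change stayed between 0.31 and 0.41, with an unadjusted p under 0.05 (edgeR) when knockdown 1 was the one left out and above it for the others. Chromosome 1 had a median of 0.19 over 518 genes, and the 47 genes within 5 Mb had one of 0.20.

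*Bax* (ENSMUSG00000003873, reverse strand, chromosome 7 from 45111015 to 45116325), a pore-forming member of the BCL2 family, had 82 and 124 scrambled reads against 117 and 100 knockdown reads. The normalized counts of 85.9 and 104 in scrambled stood below 117 and 117 in knockdown, without overlap. This was a log2 fold change of 0.29 (SE 0.17, edgeR adjusted p = 0.351), with a ratio between 0.949 and 1.57. Leaving out scrambled 1 gave 0.16 and leaving out scrambled 2 gave 0.44. *Gm45808*, a read-through gene on the same strand that shares 192 exon bases with *Bax*, had no reads assigned to it, with the same limit.

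*Ccng1* (ENSMUSG00000020326, reverse strand, chromosome 11 from 40639377 to 40646148) encodes cyclin G1, which is induced by p53 and binds the phosphatase PP2A. It had 730 and 801 reads in the scrambled libraries against 918 and 637 in the knockdown ones, or 719 ± 64.0 (SD, n = 2) and 830 ± 120 (SD, n = 2) normalized counts. Knockdown 1 was the highest library and knockdown 2, at 745, lay between scrambled 2 (674) and scrambled 1 (764). Within batches 1 and 2 the log2 ratios of knockdown to scrambled were 0.26 and 0.14 for *Ccng1*. They were 0.30 and 0.17 for *Trp53*, 0.44 and 0.16 for *Bax*, and -0.28 and -0.32 for *Cdkn1b*. For *Cdkn1a* they were 0.05 and 0.01, and for *Cdkn2c* 0.04 and -0.34. The log2 fold change of *Ccng1* was 0.21 (SE 0.14, edgeR adjusted p = 0.426), with a ratio between 0.938 and 1.42. It moved to 0.05 without knockdown 1 and to 0.35 without knockdown 2. The convergent gene *Nudcd2* shares 114 exon bases with *Ccng1* and had values in the other direction, with 349 and 433 scrambled reads against 308 and 220 knockdown reads (log2 fold change -0.37, edgeR adjusted p = 0.143).

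The members lie on chromosomes whose tested genes had medians away from 0. *Mdm2*, *Phlda3* and *Cdkn1a* are on chromosomes with medians of 0.24, 0.19 and 0.20, while *Trp53*, *Ccng1* and *Bax* are on chromosomes with medians of -0.11, -0.11 and -0.07. With the chromosome medians removed from the knockdown libraries, the log2 fold change of *Mdm2* was 0.24 (unadjusted p = 0.156 from edgeR) and that of *Phlda3* was 0.17 (0.218). On the same scale *Cdkn1b* was at -0.57 (edgeR unadjusted p = 0.0171), *Trp53* at 0.34 (0.0305), *Ccng1* at 0.32 (0.0399) and *Bax* at 0.35 (0.0552). At an unadjusted p under 0.05 stood 3 members then, other than the 2 without this step, and the adjusted p stayed at 0.196 or above for every tested member. The share of all genes at that unadjusted p is not given for this step, in which 289 genes were called against 481 without it. The part of the chromosome medians in the members' values was not tested beyond this step.

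**Figure D3:**
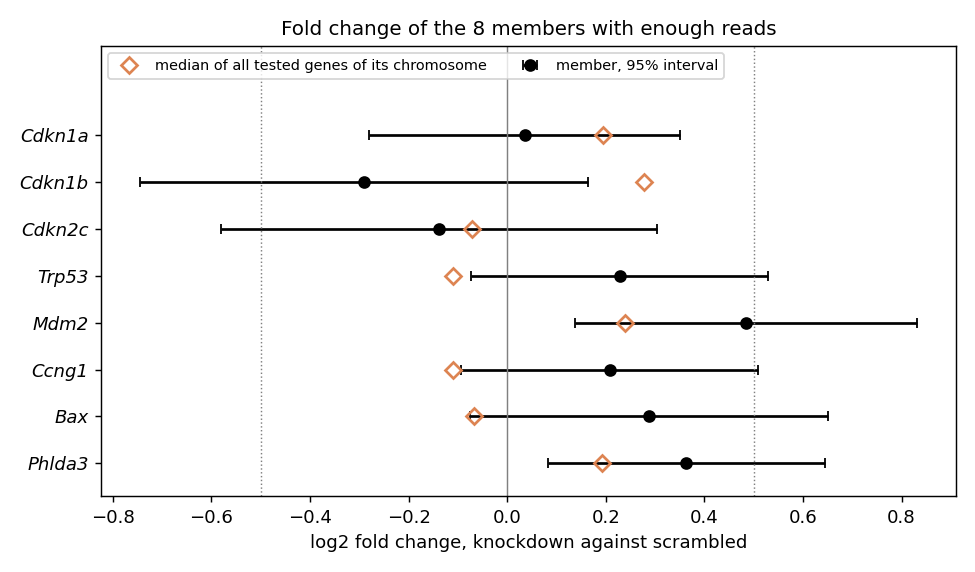
Log2 fold change of knockdown against scrambled (horizontal axis) for the 8 tested members, with 95% intervals as bars and the threshold of 0.5 as dotted lines. Orange diamonds give the median of all tested genes on the same chromosome. The intervals of *Mdm2* and *Phlda3* lie above 0, and their chromosome medians, 0.24 and 0.19, lie inside those intervals.

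Other p53 targets did not share a direction. Of 43 further targets listed from general knowledge of the pathway, 32 passed the filter, 16 of them higher and 16 lower, and their median was 0.04 on the log2 scale. At an unadjusted p under 0.05, 3 were higher and 5 lower, beside 10.3% of all genes higher and 11.5% lower. An adjusted p under 0.05 was reached by 1 higher gene and 2 lower ones, all named here. *Ephx1*, a microsomal epoxide hydrolase, had 91 and 123 reads in the scrambled libraries against 346 and 193 in the knockdown ones and rose by a log2 fold change of 1.52 (SE 0.19, edgeR adjusted p = 7.06e-05). *Rps27l*, a ribosomal protein S27 relative, had 2552 and 2080 scrambled reads against 1356 and 1274 knockdown reads and fell by 0.64 on the log2 scale (SE 0.17, edgeR adjusted p = 0.0312), on chromosome 9, whose median was -0.37. *Fas*, a death receptor, had 12 and 14 reads in the scrambled libraries against 2 and 3 in the knockdown ones and fell by 2.12 on the log2 scale (SE 0.57, edgeR adjusted p = 0.0338), with a mean normalized count under 10 and therefore no call. Without knockdown 1, none of the further targets was called. With the replicate number as a block, *Rps27l* had an adjusted p of 0.0508 (edgeR) and *Fas* one of 0.0534, while *Ephx1* was still called. Leaving out scrambled 1 moved *Rps27l* from -0.64 to -0.30, and removing the chromosome medians moved it to -0.27 (edgeR adjusted p = 0.504). With each library left out in turn *Fas* stayed between -2.54 and -1.76 on the log2 scale, with edgeR adjusted p-values of 0.0635 to 0.275, and its adjusted p was under 0.05 in 5 of 14 alternatives. *Bbc3*, which encodes the proapoptotic protein PUMA and is named after its values were seen, had 15 and 21 scrambled reads against 13 and 22 knockdown reads.

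Regulators of p53 gave no call among 15 tested of 20 listed (7 higher and 8 lower, median -0.12). An unadjusted p under 0.05 was found for 3 higher genes and 0 lower ones, beside 10.3% of all genes higher and 11.5% lower. The 3 were *Usp7*, *Rchy1* and *Wrap53*, the last given above. *Usp7*, a deubiquitinase of MDM2 and p53, had 86 and 92 reads in the scrambled libraries against 142 and 89 in the knockdown ones (log2 fold change 0.57, edgeR adjusted p = 0.0822). *Rchy1*, a ubiquitin ligase also called Pirh2, had 27 and 33 against 45 and 44 (0.77, edgeR adjusted p = 0.0930). *Usp7* depended on the library and the scaling: it was at 0.76 without knockdown 2, at 0.32 without knockdown 1 and at 0.27 (edgeR adjusted p = 0.573) with chromosome medians removed. *Mdm4*, the partner of MDM2, had 35 and 41 scrambled reads against 44 and 29 knockdown reads, and the p53 relatives *Trp63* and *Trp73* had none; these 3 are named for their place in the loop and not by the rule.

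Outside the panel, 1 CDK inhibitor passed the test. *Cdkn2d* (p19INK4d), the INK4 inhibitor of chromosome 9, had 96 and 130 reads in the scrambled libraries against 47 and 45 in the knockdown ones, and fell by 1.08 on the log2 scale (SE 0.20, edgeR adjusted p = 0.00231). Both knockdown libraries were below both scrambled libraries. The median of chromosome 9 was -0.37. With chromosome medians removed, *Cdkn2d* was at -0.72 (edgeR adjusted p = 0.0507), and without knockdown 1 its adjusted p was 0.134. Its 16 alternatives gave -1.17 to -0.72 on that scale, with edgeR or DESeq2 adjusted p-values of 8.11e-05 to 0.134, of which 12 were under 0.05. *Cdkn1c* (p57) had no reads in any library. Of the 25 genes of this list, which adds CDKs, cyclins, RB proteins and E2F factors of the G1 step, 20 were tested, 11 higher and 9 lower, with a median of 0.04 and *Cdkn2d* as the call. Of all genes tested, 2.33% were called higher and 3.22% lower. At an unadjusted p under 0.05, 2 genes of the list were higher and 2 lower, beside 10.3% of all genes higher and 11.5% lower. *Cdk4*, the target kinase of the INK4 proteins, had 313 and 349 scrambled reads against 447 and 347 knockdown reads (log2 fold change 0.46, edgeR adjusted p = 0.0629), and was at 0.22 with the median of its chromosome, 10, removed. *E2f6*, a repressive E2F factor, had 29 and 24 against 44 and 37 (0.81, edgeR adjusted p = 0.109), and was at 0.52 without scrambled 2. *Skp2*, which directs p27 to degradation, had 76 and 89 against 56 and 44 (-0.52, edgeR adjusted p = 0.142).

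Among the relatives of *Bax*, 9 of 15 were tested and none was called, with 3 higher, 6 lower and a median of -0.06. Of all genes tested, 2.33% were called higher and 3.22% lower. At an unadjusted p under 0.05, 1 relative was higher and 2 lower, beside 10.3% of all genes higher and 11.5% lower. *Bcl2l1*, which encodes BCL-XL, a restraint on BAX, had 28 and 53 reads in the scrambled libraries against 67 and 55 in the knockdown ones (log2 fold change 0.80, SE 0.25, edgeR adjusted p = 0.0585). It was called when no filter was applied, and its log2 fold change lay between 0.555 and 1.15 with a library left out. *Bcl2l2* (28 and 37 reads against 17 and 14) and *Bad* (37 and 50 against 26 and 23) had log2 fold changes of -0.86 and -0.62, with edgeR adjusted p-values of 0.130 and 0.204, and were at -0.50 and -0.39 with chromosome medians removed. *Phlda1*, a relative of *Phlda3* and like *Phlda2* outside the naming rule, had 40 and 53 scrambled reads against 35 and 39 knockdown reads, with a log2 fold change of -0.12 (-0.36 after subtracting the median of its chromosome), and *Phlda2* had none.

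Genes of DNA replication and mitosis, the steps downstream of the CDK inhibitors, summed to 5083 and 5013 CPM in scrambled and to 5015 and 5159 CPM in knockdown, so the groups overlapped. Of 28 genes, 25 were tested, 8 higher and 17 lower, and their median was -0.06 on the log2 scale. *Mcm4*, of the replicative helicase, was called, with 172 and 217 reads in the scrambled libraries against 267 and 230 in the knockdown ones (log2 fold change 0.56, edgeR adjusted p = 0.0306). Its chromosome, 16, had a median of 0.30, and the call was lost in 9 of 16 alternatives, including each that left out a library, where the log2 fold change stayed between 0.55 and 0.57, and chromosome medians removed, where it was 0.26. Both knockdown libraries lay below both scrambled libraries for 11 of the 25 (44%, beside 26% of all genes) and above them for 5 (20%, beside 26.4%). At an unadjusted p under 0.05, 4 genes were higher and 5 lower, where 10.3% of all genes were higher and 11.5% lower. The 6 with the lowest p were *Mcm4*, *Mcm2* (0.50, edgeR adjusted p = 0.0607), *Tyms* (0.45, 0.0743), *Rrm2* (0.37, 0.120), *Kif11* (-0.49, 0.0642) and *Ube2c* (-0.35, 0.125). With chromosome medians removed *Mcm2* was at 0.22, *Tyms* at 0.22 and *Kif11* at -0.26, and without knockdown 2 *Rrm2* was at 0.24.

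**Figure D4:**
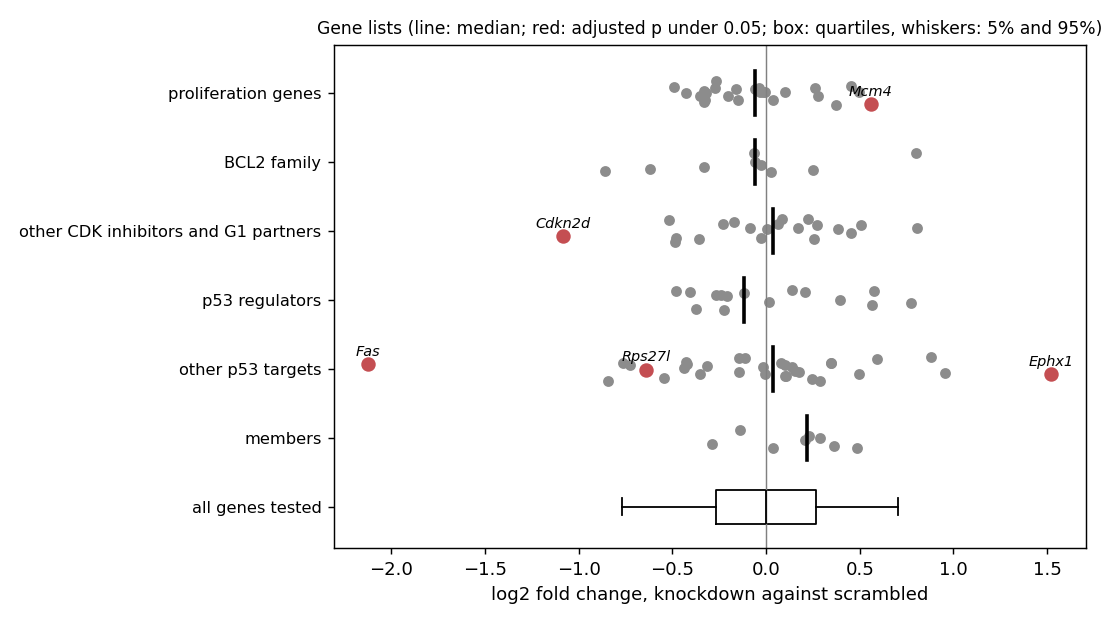
Log2 fold change of knockdown against scrambled (horizontal axis) for each tested gene of the panel and of 5 lists, with a black line at each median. Red dots mark an adjusted p under 0.05, and the box and whiskers show the quartiles and the 5% and 95% points of all 8670 genes. The panel has its median at 0.22 and no red dot.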

How the data were processed

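Direct RNA reads of 4 libraries were basecalled and aligned by the authors, who counted reads per gene; the submitters' processing notes name minimap2 2.17, SAMtools, HTSeq 0.9.1 and GRCm39. The deposited values are raw read counts for 56748 Ensembl IDs. The annotation release and the strand setting of the counting are not given in the sources used here. IDs were matched without their version to GENCODE vM39 (56017 matched), and rows that name no gene were left out. Genes were tested with edgeR 4.0.16 in R 4.3.3 (TMM, filterByExpr, quasi-likelihood test, knockdown against scrambled, Benjamini-Hochberg adjustment over 8670 genes), after the scripts were tested on simulated data. An exact permutation test of 2 against 2 libraries cannot go below p = 0.333 and was not used. The alternatives were RLE and upper quartile factors, other filters, DESeq2 1.42.0, the replicate block, chromosome medians removed from the knockdown libraries as an offset, and each library left out in turn. With a library left out, its group holds 1 library, and the spread comes from the 2 libraries of the other group alone.

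The replicate number of the sample titles was taken as the batch, and a pairing of the libraries by it is an assumption. The deviations of same-numbered libraries did not correlate (r = -0.0186 across 7008 genes, which are not independent replicates). Replicates differed by more than counting error, with a chi-square per gene of 2.55 in scrambled and 2.79 in knockdown, where counting error alone gives 1. Named genes were all members, *Hnrnpl*, the genes that overlap a member with reads and, from each other list, those with an adjusted p under 0.05 or, where fewer than 3, the up to 6 with the lowest unadjusted p under 0.05. Other genes (cell type markers, *Cdkn1c*, *Phlda1*, *Phlda2*, neighbours of *Cdkn2a*) were named for their place in a list or region, after their values were seen. The members and lists were chosen with earlier results of these data known. Consensus matches were searched in the GRCm39 genome, and canonical transcripts were mapped back to it with minimap2 2.31-r1302.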

Additional observations from a re-analysis of the deposited data

How the results depend on the processing

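No member was called under any of the 16 alternatives, and none had an adjusted p under 0.05 in 128 combinations of member and alternative. *Mdm2* came nearest, at 0.0587 without scrambled 1. A change of sign was found for *Cdkn1a*, at -0.159 with chromosome medians removed and between -0.129 and 0.177 with a library left out. Of all genes, 481 were called, against 115 and 228 with the DESeq2 Wald test (parametric and local fit), 112 and 222 with its likelihood-ratio test, 289 with chromosome medians removed and 20 (without knockdown 1) to 444 with a library left out. Further p53 targets had 2 calls, 4 without a filter, 1 with each DESeq2 test, the replicate block or chromosome medians removed, and 0 to 2 with a library left out. The further targets also had 3 calls, 2 of them higher, with a filter of 10 counts in every library or with edgeR's option legacy = FALSE. Without scrambled 1 *Rps27l*, at -0.30, was no longer among their calls. The other CDK inhibitors and the myogenic genes had 1 call each and 0 with both parametric DESeq2 tests, and the former also 0 with chromosome medians removed. The proliferation genes had 1 call and 0 with each DESeq2 test or chromosome medians removed. The BCL2 family had 0 calls and 1 without a filter. With a library left out, each of these lists and the p53 regulators had 0 to 1; the proliferation call without knockdown 2 was a lower gene, not *Mcm4*. The cause of these differences was not tested. With the replicate block (the pairing by batch) 484 genes were called, the myogenic genes had 0 calls, and no member's call changed. With 2 libraries a group, the intervals of the tested members allow ratios of 1.12 to 1.78 at their upper end.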
